A study of Mus musculus with 6 samples.

Results

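The Slitrk2-Fmr1 miRNA cluster of the mouse X chromosome was examined in small RNA counts of purified round spermatids, the germ cells that have just completed meiosis. Its members were the miRNA entries of the small RNA table that belong to the subfamilies miR-201, miR-463, miR-465, miR-470, miR-471, miR-547, miR-741, miR-742, miR-743, miR-871, miR-878, miR-880, miR-881 and miR-883, with any letter and either arm. This rule gave 36 of the 1900 miRNA entries, from 14 numbered subfamilies and 19 hairpin names, with 19 entries of the 5p arm and 17 of the 3p arm. All 36 had at least 1 count. The study compared 3 libraries from Miwi knockout (KO) testes with 3 libraries from wild-type (WT) testes, all of strain C57BL/6 at postnatal day 21, an age at which round spermatids come from the first wave of spermatogenesis. The knockout is global, so the loss of MIWI is not restricted to 1 cell type. Replicate numbers are given without naming animals, and p-values therefore reflect only the variation among these libraries, part or all of which may be technical.

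MIWI (PIWIL1) is a PIWI protein that binds pachytene piRNAs, a class of small RNAs made without Dicer. miRNAs are made by another route: Drosha cuts a hairpin from the primary transcript, Dicer cuts the hairpin to a duplex, and an Argonaute protein keeps mostly the strand of 1 arm, named 5p or 3p by its side of the hairpin. The seed of the mature miRNA, bases 2 to 8, pairs with target mRNAs. The cluster between Slitrk2 and Fmr1 belongs to what is also called the miR-506 family. This family evolves fast in mammals, with many gene duplications and changed seeds, and in mice it is expressed preferentially in the testis.

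The 36 mature miRNAs all matched the RefSeq miRNA table of build GRCm38.p6, and their lengths equalled those in the count table. Their hairpins come from 21 genes, all on the minus strand. A block of 62.4 kb at chrX:66776757-66839125 holds 19 of these genes, while Mir201 and Mir547 lie 1149 kb further on, at chrX:67988096-67988161 and chrX:67988374-67988451. No other miRNA gene of that table lay between the outermost members.

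The mature sequences below show the entries that share a seed or are nearly identical, since these bear on how counts were divided, and those of the miRNAs whose levels differed most. They are from RefSeq, 5′ to 3′, with the seed (bases 2 to 8) in capitals. The 4 miR-465 entries of the 5p arm share 1 seed.
miR-465a-5p: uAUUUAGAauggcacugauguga
miR-465b-5p: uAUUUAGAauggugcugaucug
miR-465c-5p: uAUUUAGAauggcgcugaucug
miR-465d-5p: uAUUUAGAaugguacugauguga
The miR-465 entries of the 3p arm have different seeds, as miR-465d-3p starts 1 base earlier on a nearly identical sequence.
miR-465a-3p: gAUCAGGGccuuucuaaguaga
miR-465d-3p: uGAUCAGGgccuuucugaguaa
The other shared seeds are those of both miR-743 and of both miR-883 entries of the 3p arm, and of miR-743a-5p with miR-871-5p.
miR-743a-3p: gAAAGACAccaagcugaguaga
miR-743b-3p: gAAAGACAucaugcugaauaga
miR-883a-3p: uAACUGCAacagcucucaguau
miR-883b-3p: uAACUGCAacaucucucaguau
miR-743a-5p: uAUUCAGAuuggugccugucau
miR-871-5p: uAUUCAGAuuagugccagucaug
The remaining miRNAs of the 3p arm that were lower in KO relative to all miRNAs each have a seed of their own.
miR-742-3p: gAAAGCCAccaugcuggguaaa
miR-878-3p: gCAUGACAccacacuggguaga
miR-880-3p: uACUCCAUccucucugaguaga
miR-881-3p: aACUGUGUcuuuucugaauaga
miR-470-3p: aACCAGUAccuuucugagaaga
miR-547-3p: cUUGGUACaucuuugagugag

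Counted from 1 at the 5′ end, miR-465b-5p differs from miR-465c-5p by 1 base (U13C), miR-465a-5p from miR-465d-5p by 1 base (C13U), and miR-883a-3p from miR-883b-3p by 1 base (G12U). miR-743a-3p differs from miR-743b-3p by 3 bases (C9U, A12U, G18A). How reads with mismatches were placed was not given in the sources used here, so the division of counts within these pairs is uncertain. The same holds for miR-465a-3p and miR-465d-3p, which are nearly identical when shifted by 1 base. RefSeq gives miR-465b-3p and miR-465c-3p the sequence of miR-465a-3p, and the table holds 1 entry for it, so this entry counts the 3p arm of Mir465, Mir465b-1, Mir465b-2, Mir465c-1 and Mir465c-2. The members have 30 different seeds, and apart from miR-465b-3p and miR-465c-3p just above, the single seed found in a RefSeq miRNA outside the cluster was GUUCAGA, of miR-743b-5p, shared with miR-6948-5p. Chosen after the sequences were seen, the letters UAGA end 7 of 17 entries of the 3p arm (41.2%), against 3 of 690 other RefSeq mature miRNAs of that arm (0.435%). The letters UA begin 14 of 19 entries of the 5p arm (73.7%), against 59 of 678 others (8.70%). These members share ancestry, and only the strand of the mature RNA was read.

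The libraries held 146487 to 243655 miRNA counts in KO and 179761 to 246030 in WT, and miRNAs were 18.1% to 19.6% of the small RNA table in KO and 4.88% to 5.96% in WT. Levels are therefore given per 10000 miRNA counts. The genotype could not be checked on Miwi mRNA, because small RNAs were counted. The 5 miRNAs listed for round spermatids and late meiosis, led by miR-34b-5p, summed to 3174 to 3628 per 10000 in KO and 2939 to 3057 in WT. Markers of other testis cells were present at lower levels, and no marker was at 0 in every library. Spermatogonial miRNAs (7) summed to 65.5 to 84.2 in KO and 72.3 to 87.6 in WT, Sertoli and gonadal ones (4) to 58.4 to 59.5 in KO and 57.6 to 65.6 in WT, and endothelial ones (2) to 80.4 to 87.2 in KO and 83.3 to 85.8 in WT. Leukocyte miRNAs (5) summed to 19.7 to 22.7 in KO and 15.7 to 20.9 in WT, and erythroid ones (3) to 0.383 to 0.546 in KO and 0.834 to 1.22 in WT. The 4 smooth muscle and peritubular miRNAs were at 184 to 234 in KO and 240 to 336 in WT, without overlap. In bulk samples, fewer cells of a type and less RNA per cell cannot be told apart.

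As a whole, the cluster was a smaller part of the miRNAs in KO, while on the scale of the whole small RNA table the direction turned. It made up 6.66%, 6.49% and 6.45% of the miRNA counts in the KO libraries, against 7.28%, 7.44% and 7.44% in the WT libraries. Every KO library was below every WT library. The mean was 6.53% ± 0.112 for KO and 7.39% ± 0.0930 for WT (SD, n = 3 each), a difference of -0.855 percentage points. No test was made of this sum over the members. Of the whole table it was 1.18% to 1.27% in KO and 0.364% to 0.444% in WT, since miRNAs were a larger part of that table in KO. The miRNA total itself held entries that differed between the genotypes, such as miR-468-5p, with 0.369% to 0.553% of the miRNA counts in KO and 4.86% to 6.01% in WT. With miR-468-5p left out of the total, a choice made after seeing the data, the cluster averaged 6.56% ± 0.111 for KO and 7.82% ± 0.0741 for WT (SD, n = 3 each). Without the 10 highest miRNAs outside the cluster it averaged 14.5% ± 0.111 for KO and 16.5% ± 0.0952 for WT (SD, n = 3 each). The cluster held 94.2% ± 0.245 of the X-linked miRNA counts for KO and 94.1% ± 0.248 for WT (SD, n = 3 each).

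A few miRNAs carried much of the cluster. The 5 highest members, miR-741-3p, miR-465a-3p, miR-743b-3p, miR-465c-5p and miR-743a-3p, held 46.4% ± 1.67 of its counts for KO and 45.4% ± 1.61 for WT (SD, n = 3 each). By mean level 9 members were among the 50 highest miRNAs and 20 among the 100 highest. At the other end, 5 members had too few counts to be tested. These were miR-201-3p with 17 counts over the 6 libraries, miR-465d-5p and miR-547-5p with 2 each, and miR-880-5p and miR-881-5p with 1 each. The single miR-880-5p count was in KO library 1, and its 0 counts in WT allow up to 0.0482 per 10000 miRNA counts (3 counts over the group, counting error only). Its 3p partner from the same hairpin averaged 29.5 ± 1.66 for KO and 39.3 ± 3.86 for WT (SD, n = 3 each).

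**Figure D1:**
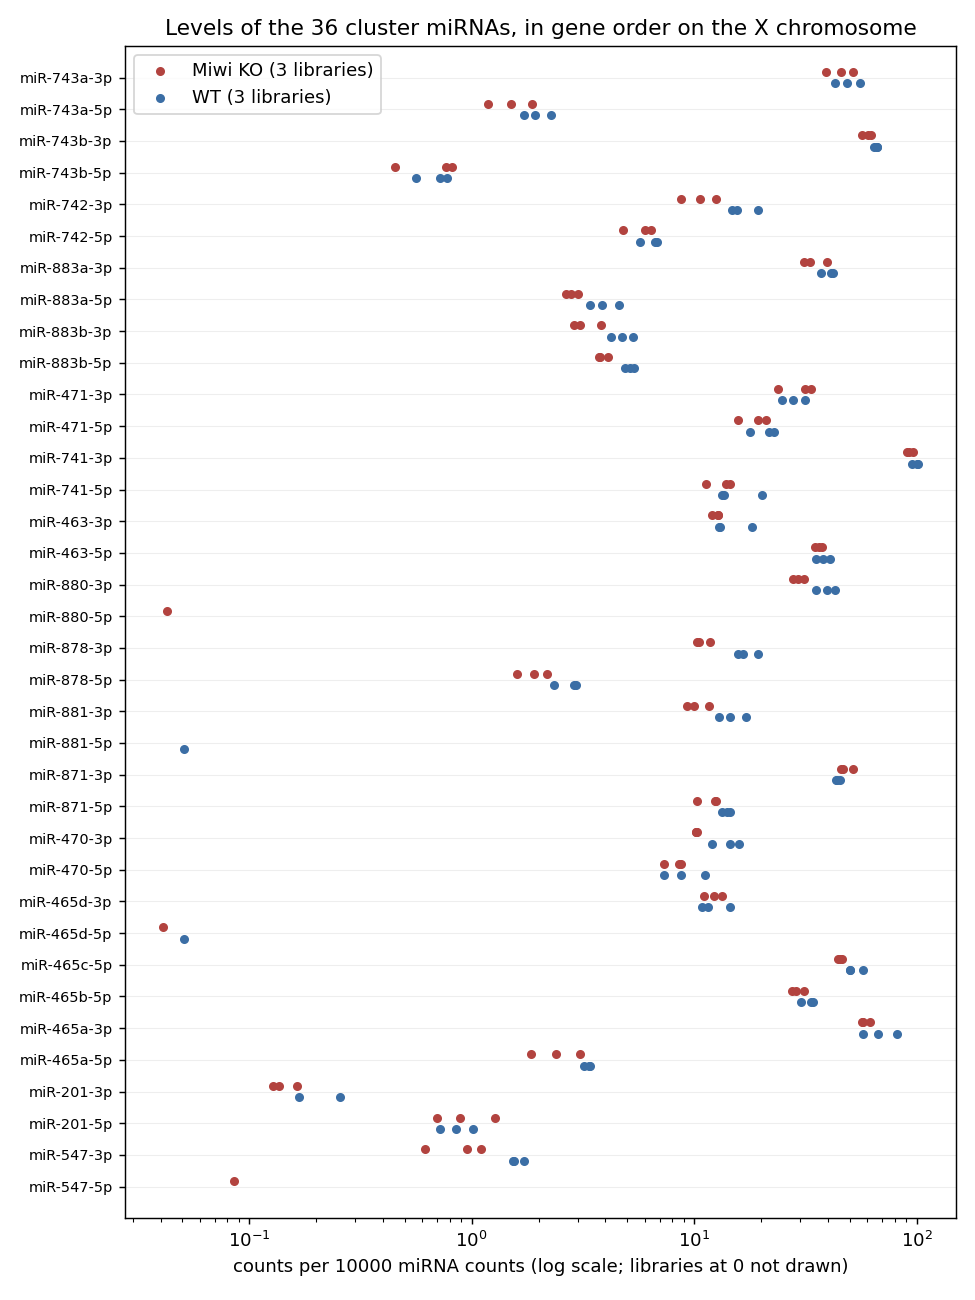
Level of each of the 36 cluster miRNAs in counts per 10000 miRNA counts (log scale), 1 point per library, with KO above WT in each row and rows in gene order. The highest member is miR-741-3p, with up to 101 in WT, libraries at 0 are not drawn, and with TMM factors of the whole table the 31 tested members are higher in KO.

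Single miRNAs were compared between KO and WT with edgeR's quasi-likelihood test on the whole small RNA table, with the miRNA total as library size and p-values adjusted over all 24682 small RNAs tested. Of the 36 members 31 passed the filter on low counts. Of these, 8 fell in KO, 0 rose and 23 did not pass at an adjusted p of 0.05, while with TMM factors of the whole table (edgeR's trimmed-mean scaling) all 31 rose. The log2 changes of the 8 lay between -0.85 and -0.42, and 9 of the 31 had an unadjusted p under 0.05. Among all 348 miRNAs tested 13.8% were called lower and 8.33% higher, and 97.1% were called higher with TMM factors of the whole table. Among all small RNAs tested, most of them piRNAs, 83% were called in either direction and 76.7% lower. With so many calls the adjustment over the whole table changed p-values little, in edgeR from 0.04045 to 0.0488 for miR-883a-5p. The median log2 change was -0.23 over the 31 members, -0.11 over the 348 miRNAs and -2.14 over all small RNAs, and with TMM factors of the whole table these medians were 1.70, 1.81 and -0.21. In 15 of the 31 members every KO library lay below every WT library and in 1 above, and for the 348 miRNAs these shares were 22.4% and 12.1%. When the miRNAs were fitted and adjusted alone, 4 members were called lower, namely miR-878-3p, miR-742-3p, miR-880-3p and miR-881-3p. In that fit edgeR's adjusted p was 0.0565 for miR-547-3p, 0.0611 for miR-470-3p, 0.0911 for miR-883b-3p and 0.121 for miR-883a-5p. TMM factors of the miRNAs left 5 of the 8, without miR-470-3p, miR-880-3p and miR-883a-5p, where 10.3% of all miRNAs were called lower. With miR-468-5p left out of the total 11 members were called lower, the 8 with miR-465a-5p, miR-878-5p and miR-883b-5p. Lower calls also rose among all 348 miRNAs, from 48 to 68. DESeq2 called 7, without miR-883a-5p, and 5 members were called without KO replicate 3 and 5 without WT replicate 1. In the latter fit 4 were among the 8, and the other was miR-878-5p.

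The largest subfamily, miR-465, was lower in KO as a sum relative to all miRNAs, though no member of it passed the test. Mice without miR-465 genes have been reported to have offspring with a skewed sex ratio. The subfamily summed to 149.9, 146 and 148 per 10000 in the KO libraries, against 163, 166 and 180.3 in the WT libraries, with no overlap. Its highest member, miR-465a-3p, was at 56.7, 57.6 and 61.8 in the KO libraries and 57.3, 67.4 and 81.4 in the WT libraries. The genotypes overlapped, and the estimated log2 change was -0.23 ± 0.17 (SE), with an edgeR adjusted p of 0.200. miR-465c-5p was at 46.2, 45.3 and 44.5 in the KO libraries and 57.5, 50.04 and 50.4 in the WT libraries, which did not overlap. Its log2 change of -0.22 ± 0.16 (SE) did not pass, with an edgeR adjusted p of 0.213. The log2 change was -0.48 for miR-465a-5p, -0.16 for miR-465b-5p and -0.00129 for miR-465d-3p, none past the threshold.

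The next subfamilies in abundance, miR-743 and miR-741, gave no call. miR-743a-3p is known as a repressor of Mdh2, which codes for a mitochondrial malate dehydrogenase. The miR-743 sum averaged 108 ± 8.86 for KO and 117 ± 7.66 for WT (SD, n = 3 each), with overlap. Its highest entry, miR-743b-3p, was at 60.4, 56.9 and 62.4 in the KO libraries and 66.6, 64.3 and 66.2 in the WT libraries. Although these did not overlap, the log2 change of -0.13 ± 0.16 (SE) did not pass, with an edgeR adjusted p of 0.436. miR-741-3p, the highest member of the cluster, was at 92.2, 96.6 and 90.7 in the KO libraries and 101, 100.2 and 95.2 in the WT libraries. KO library 2 was above WT library 3, and the log2 change was -0.09 ± 0.16 (SE), with an edgeR adjusted p of 0.610.

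miR-871, miR-463 and miR-471 gave no call either. miR-871-3p was the 1 tested member whose KO libraries all lay above WT, at 46.6, 45.6 and 51.9 in KO and 45.3, 43.4 and 43.8 in WT. The log2 change was 0.12 ± 0.16 (SE), with an edgeR adjusted p of 0.482. Its partner strand miR-871-5p averaged 11.8 ± 1.23 for KO and 14.00 ± 0.584 for WT (SD, n = 3 each), with every KO library below WT relative to all miRNAs. miR-463-5p was at 36.6, 37.4 and 34.8 in the KO libraries and 35.4, 40.8 and 37.9 in the WT libraries, which overlapped. Its log2 change was -0.07 ± 0.16 (SE), with an edgeR adjusted p of 0.701. miR-471-3p was at 31.7, 33.5 and 23.8 in the KO libraries and 27.98, 31.6 and 24.96 in the WT libraries, which also overlapped. Here the log2 change was 0.07 ± 0.18 (SE), with an edgeR adjusted p of 0.707. The other strand of that hairpin, miR-471-5p, has been studied in mouse Sertoli cells, where it affects the uptake of dying germ cells. It averaged 18.7 ± 2.72 for KO and 20.8 ± 2.58 for WT (SD, n = 3 each).

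The steadiest calls were those of miR-878-3p and miR-742-3p, the 2 members lower under every alternative except TMM factors of the whole table, which turned both directions. miR-878-3p was at 10.3, 10.5 and 11.8 in the KO libraries and 15.7, 19.5 and 16.5 in the WT libraries. Its log2 change was -0.67 ± 0.18 (SE), with an edgeR adjusted p of 0.000955, and 1.25 with TMM factors of the whole table. miR-742-3p was at 10.6, 8.74 and 12.5 in the KO libraries and 14.7, 15.7 and 19.3 in the WT libraries. Its log2 change was -0.64 ± 0.19 (SE), with an edgeR adjusted p of 0.00217, and 1.30 with TMM factors of the whole table. In both miRNAs the highest KO library was below the lowest WT library.

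The other calls depended on single libraries or on the fit, and all of them turned direction with TMM factors of the whole table. miR-881-3p was at 11.6, 10.04 and 9.28 in the KO libraries and 17.1, 13.01 and 14.6 in the WT libraries, with no overlap. It had a log2 change of -0.53 ± 0.18 (SE), with an edgeR adjusted p of 0.00904, and of 0.0812 without WT replicate 1. miR-880-3p was at 27.99, 31.3 and 29.2 in the KO libraries and 39.8, 42.95 and 35.3 in the WT libraries, with no overlap. It had a log2 change of -0.42 ± 0.17 (SE), with an edgeR adjusted p of 0.0210. This became 0.0794 without KO replicate 1, 0.0664 without WT replicate 1 and 0.0787 without WT replicate 2 in edgeR's adjusted p, and 0.0766 with TMM factors of the miRNAs. Mir880, Mir878 and Mir881 are neighbours within 1.49 kb, which was seen after their values, while the genes on either side, Mir463 and Mir871, gave no call. This is not particular to that stretch, since Mir742, Mir883a and Mir883b also lie in a row and each gave a called entry. Mir743b and Mir471, on either side of them, gave no call.

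miR-470 is known in mouse embryonic stem cells for acting on the coding sequences of mRNAs of pluripotency factors. Which arm this concerns was not checked here, and miR-470-3p and miR-470-5p have different seeds. miR-470-3p was at 10.2, 10.2 and 10.3 in the KO libraries and 14.5, 11.99 and 15.9 in the WT libraries. The KO libraries were nearly alike and all below WT, and the log2 change was -0.47 ± 0.18 (SE), with an edgeR adjusted p of 0.0178, and of 0.0602 without WT replicate 1. It did not pass with TMM factors of the miRNAs either (edgeR adjusted p of 0.0536). The partner miR-470-5p overlapped between the genotypes and averaged 8.21 ± 0.790 for KO and 9.08 ± 1.98 for WT (SD, n = 3 each).

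In the miR-883 subfamily 2 of the 3 less abundant entries were called lower with the miRNA total as scale. miR-883a-3p was at 39.7, 33.1 and 31.4 in the KO libraries and 42.2, 41.2 and 37.2 in the WT libraries, which overlapped. Its log2 change was -0.21 ± 0.17 (SE), with an edgeR adjusted p of 0.240. miR-883b-3p, with the same seed, was at 3.83, 3.07 and 2.87 in the KO libraries and 5.34, 4.74 and 4.23 in the WT libraries, with no overlap. It had a log2 change of -0.54 ± 0.22 (SE), with an edgeR adjusted p of 0.0234. This became 0.0650 without KO replicate 2, 0.0999 without KO replicate 3 and 0.105 without WT replicate 1 in edgeR's adjusted p. miR-883a-5p, the single 5p entry called, was at 3.02, 2.80 and 2.67 in the KO libraries and 3.39, 3.88 and 4.59 in the WT libraries, with no overlap. It had a log2 change of -0.49 ± 0.23 (SE), with an edgeR adjusted p of 0.0488. Without WT replicate 1 it passed (0.0423 in edgeR), and without any other single library it did not, with edgeR adjusted p-values of 0.0667 to 0.131. The call was also lost in DESeq2 (adjusted p of 0.0868), and in edgeR without the filter on low counts (adjusted p of 0.0640) and with TMM factors of the miRNAs (adjusted p of 0.0939). The remaining entry, miR-883b-5p, averaged 3.87 ± 0.188 for KO and 5.14 ± 0.242 for WT (SD, n = 3 each), without overlap. Its log2 change of -0.40 ± 0.21 (SE) did not pass, with an edgeR adjusted p of 0.0691.

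The pair apart from the main block was sparse. miR-547-3p had 26, 14 and 15 counts in the KO libraries and 31, 30 and 38 in the WT libraries, or 1.11, 0.956 and 0.616 per 10000 in KO and 1.72, 1.53 and 1.54 in WT. The libraries did not overlap, and the log2 change was -0.85 ± 0.32 (SE), with an edgeR adjusted p of 0.0159, and of 0.115 without KO replicate 3. miR-201-5p had 30, 13 and 17 counts in the KO libraries and 13, 20 and 21 in the WT libraries, or 1.28, 0.887 and 0.698 per 10000 in KO and 0.723, 1.02 and 0.854 in WT. The genotypes overlapped, and the log2 change was 0.14 ± 0.35 (SE), with an edgeR adjusted p of 0.712.

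**Figure D2:**
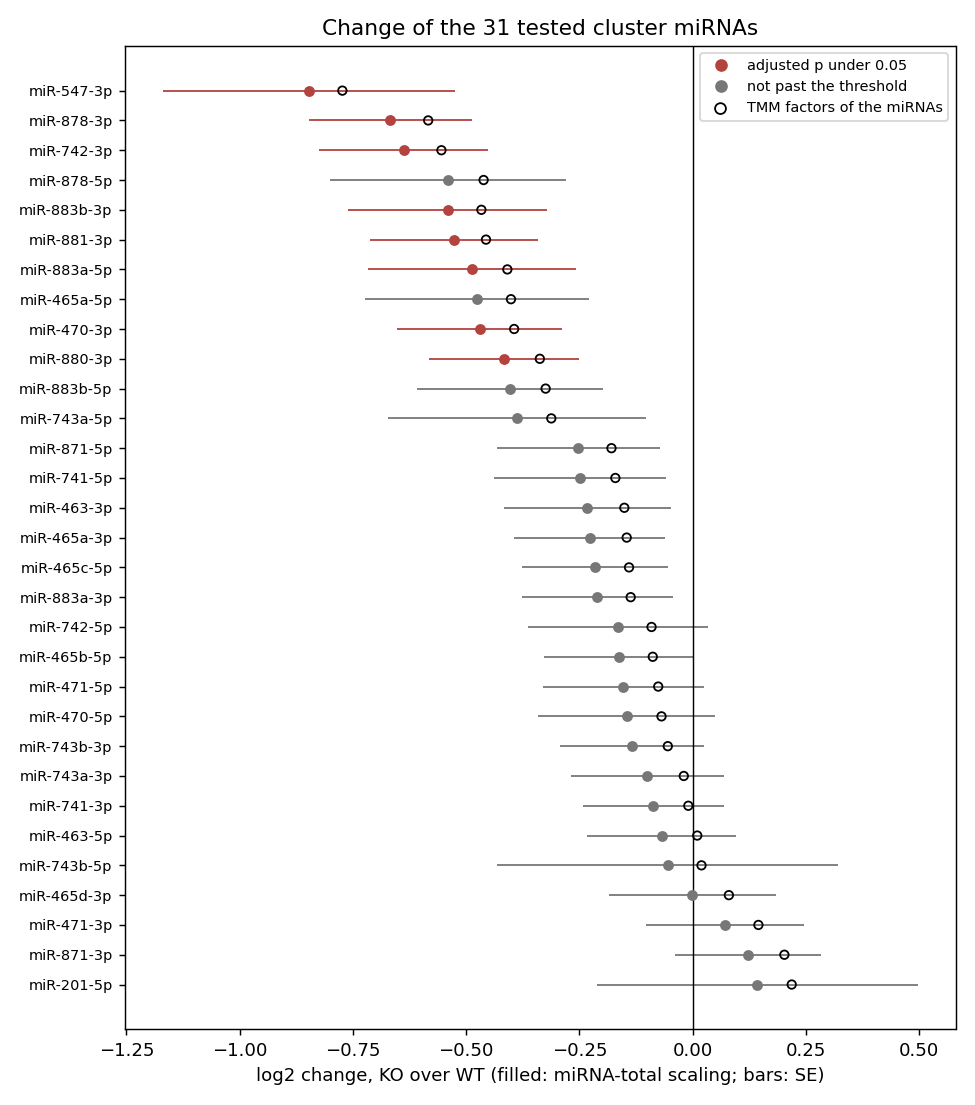
Log2 change, KO over WT, of the 31 tested cluster miRNAs scaled to the miRNA total, with bars for the SE of the fit, red points for an adjusted p under 0.05 and open circles for TMM factors of the miRNAs. The 8 past the threshold lie between -0.85 and -0.42, and with TMM factors of the whole table, not drawn, all 31 changes are above 0.

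By subfamily and relative to all miRNAs, every KO library was below every WT library for miR-465, miR-470, miR-547, miR-742, miR-878, miR-880, miR-881 and miR-883, and the genotypes overlapped for the other 6. The gap was narrow for miR-883, with 50.7 in KO library 1 and 50.9 in WT library 3. It was also narrow for miR-470, with 18.96 in KO library 1 and 19.3 in WT library 2. Of the 348 single miRNAs tested 22.4% lay wholly below WT, and sums of other miRNA families were not made. The KO to WT ratio of the mean sums was lowest for miR-547 (0.576), miR-878 (0.638), miR-881 (0.692) and miR-742 (0.711) and highest for miR-201 (1.09) and miR-871 (1.03). Shares of the cluster's own counts do not depend on the scaling. On this scale miR-878 was at 1.95% ± 0.123 for KO and 2.70% ± 0.279 for WT, miR-742 at 2.51% ± 0.175 for KO and 3.11% ± 0.223 for WT, and miR-871 at 9.16% ± 0.428 for KO and 7.87% ± 0.310 for WT (SD, n = 3 each). The genotypes did not overlap in these 3 subfamilies, nor in miR-547 and miR-881, and overlapped in the other 9. miR-465 was at 22.7% ± 0.261 for KO and 22.97% ± 1.09 for WT on that scale (SD, n = 3 each). The 8 called members together averaged 78.5 per 10000 for KO and 112.5 for WT, or 12.01% of the cluster for KO and 15.2% for WT. They were picked as lower in KO in these same libraries, so a lower sum in KO follows from that choice and adds no support.

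**Figure D3:**
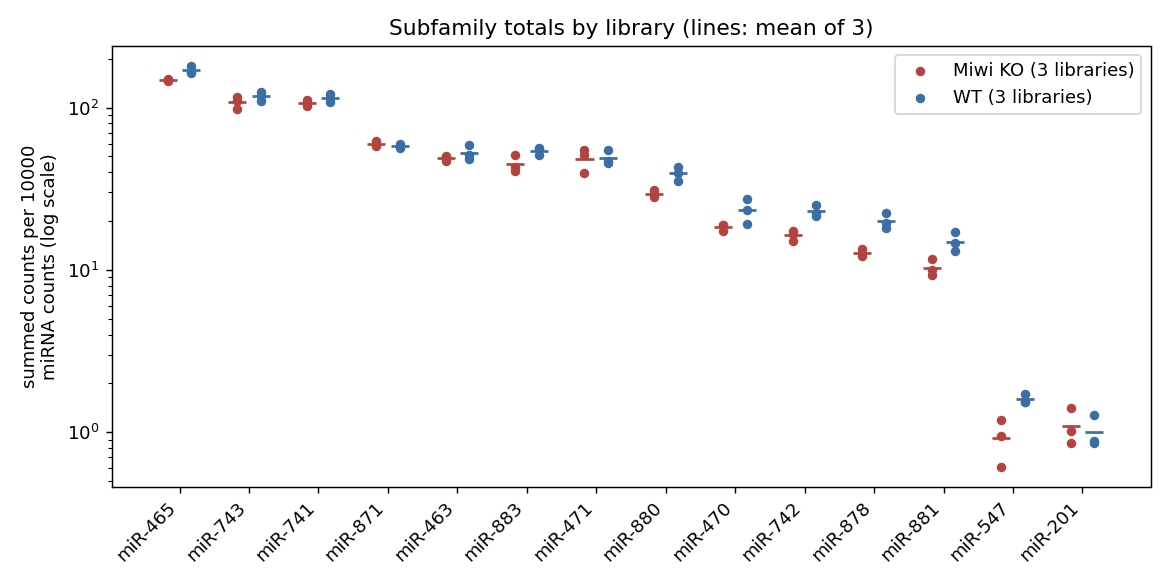
Summed level of each of the 14 subfamilies in counts per 10000 miRNA counts (log scale), 1 point per library and a line at the mean of 3, with KO left of WT. The libraries of miR-878, miR-880, miR-881 and miR-742 separate by genotype and those of miR-743, miR-741 and miR-471 overlap, and with TMM factors of the whole table the 31 tested members are all higher in KO.

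Among the tested members 7 of 16 entries of the 3p arm and 1 of 15 of the 5p arm were called lower with the miRNA total as scale, where 13.8% of all miRNAs were. The split moved with the total used, to 7 of 16 and 4 of 15 without miR-468-5p in it, and to 5 of 16 and 0 of 15 with TMM factors of the miRNAs. Of all 348 miRNAs, 68 were called lower without miR-468-5p in the total and 36 with TMM factors of the miRNAs. On the miRNA total the median log2 change was -0.23 for the 3p arm and -0.22 for the 5p arm. The 3p arm made up 72.04% ± 1.42 of the cluster's counts for KO and 71.8% ± 0.218 for WT (SD, n = 3 each). Across the 31 members Pearson's r between the log10 level and the log2 change was 0.33 and Spearman's rho 0.34, as a description over entries that share the same 6 libraries.

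Arm use was compared within each hairpin, where the scale of the library cancels. With the miR-465a, miR-465b and miR-465c hairpins taken as 1, since they share a 3p entry, 17 hairpins had both arms in the table. The 3p arm was higher in 13 of them and the 5p arm in 4, namely miR-201, miR-463, miR-883b and miR-465a to c. Over all libraries the 5p share was 87.02% for miR-201, 73.2% for miR-463 and 56.2% for miR-465a to c. It was 0.0235% for miR-880, with 1 count of 4252, and 0.0638% for miR-881, with 1 of 1567. By these counts close relatives differed in arm share, with a 5p share of 52.97% for miR-883b and 8.39% for miR-883a, and of 0.129% for miR-465d. The 3p entries of miR-883a and miR-883b differ by 1 base, as do the 5p entries of miR-465a and miR-465d. How counts were divided between such entries is uncertain, and its part in these shares was not tested.

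No difference in arm use between the genotypes passed the test. In edgeR's test of the arm by genotype term, over the 141 hairpins of the table with enough counts on both arms, 5.67% were called. Of the 13 cluster hairpins tested 0 were called, 2 had an unadjusted p under 0.05, and DESeq2 called 0. In miR-465a to c, the hairpin with most counts, the 5p share was 58.5%, 57.3% and 54.4% in the KO libraries and 62.4%, 55.4% and 51.7% in the WT libraries. The log2 change of its 5p to 3p ratio was 0.01 ± 0.19 (SE), with an edgeR adjusted p of 0.973. In miR-741 the 5p share was 13.6%, 12.6% and 11.1% in the KO libraries and 11.7%, 16.7% and 12.5% in the WT libraries, with a log2 change of the ratio of -0.15 ± 0.19 (SE) and an edgeR adjusted p of 0.775. In miR-743b it was 1.25%, 1.42% and 0.718% in the KO libraries and 1.07%, 0.865% and 1.15% in the WT libraries, with a log2 change of 0.06 ± 0.36 (SE) and an edgeR adjusted p of 0.936. The genotypes overlapped in these 3 hairpins. In miR-871 it was 21.2%, 21.4% and 16.6% in the KO libraries and 24.3%, 23.6% and 24.4% in the WT libraries, which did not overlap. The log2 change of -0.38 ± 0.18 (SE) did not pass, with an edgeR adjusted p of 0.273. miR-742 had the largest estimated change among those tested, 0.46 ± 0.20 (SE) with an edgeR adjusted p of 0.231, and was called when KO replicate 3 was left out.

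**Figure D4:**
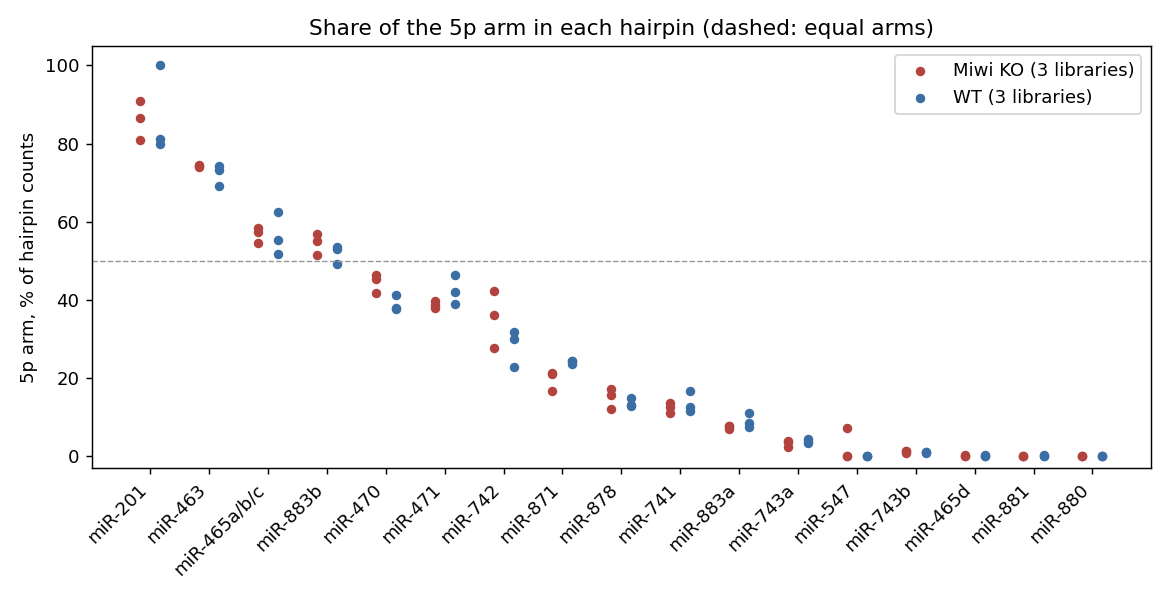
Share of the 5p arm in the counts of each hairpin, in percent, 1 point per library with KO left of WT. Hairpins run from 87.0% (miR-201, over all libraries) to near 0 (miR-880), and the genotypes overlap in all hairpins except miR-470 and miR-871.

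Other miRNAs of the X chromosome were examined on the miRNA scale. The 22 other X-linked miRNAs tested had a median log2 change of -0.32, with 3 called lower and 1 higher, and the 218 autosomal miRNAs had a median of -0.07, with 30 lower and 22 higher. With TMM factors of the whole table these medians were 1.61 and 1.86, against 1.70 for the cluster. Other X-linked miRNAs made up 0.402% ± 0.0229 of the miRNA counts for KO and 0.461% ± 0.0226 for WT (SD, n = 3 each). Whether the cluster differed from them was not tested. Among the marker sums relative to all miRNAs, every KO library was above WT for the round spermatid and late meiotic list and below WT for the smooth muscle and peritubular and the erythroid lists, while the genotypes overlapped for the other 4 lists, spermatogonia among them. Members of 1 list differed, since miR-34b-5p and miR-191-5p of the first list and miR-145a-5p and miR-10b-5p of the second overlapped between the genotypes. In the erythroid list miR-144-3p and miR-486a-5p overlapped and miR-451a did not. Within the lists whose sums overlapped, every KO library was above WT for miR-223-3p, miR-150-5p and miR-155-5p. Every KO library was below WT for miR-199a-3p and miR-290a-5p of those lists. The part of these markers in the differences of the cluster was not tested.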

How the data were processed

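Small RNAs from the 3 Miwi KO and 3 WT round spermatid libraries were prepared, per the labels' protocols, with mirVana isolation and an Ion Total RNA-Seq library kit. The authors deposited raw counts, in whole reads per annotated small RNA sequence, made with featureCounts v1.5.0-p2 per the file headers. The submitters' processing notes also name cutadapt, DESeq2 and build mm9. Aligner settings and the handling of multiply matching reads were not given in the sources used here. Levels of different miRNAs compare counts, not molecules, as ligation can favour some ends. The piRNA table was not used, since none of its entries is on the X chromosome. Table totals were 747443 to 5037232 counts. Floors cover counting error only.

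Tests of KO over WT used edgeR 4.0.16 (R 4.3.3, two-sided quasi-likelihood test, Benjamini-Hochberg over the whole table, threshold 0.05), using the miRNA total as library size and filterByExpr (minimum count 10, total at least 15). Arm use was tested with libraries as blocks and an arm by genotype term, with at least 10 counts on each arm. The fits were tested on simulated data with a fixed spread and few changed entries, raised and lowered alike. Most entries of the real table differed between the genotypes, so those data cannot show how the test of levels behaves on it. All libraries are given for the highest entry of each subfamily, up to 6 rises and 6 falls past the threshold by size, and the 4 hairpins with most counts, as none passed the arm test, and other members complete a subfamily. Members, lists and tests were chosen with earlier results of these data known. Alternatives were other scalings and filters, DESeq2 1.42.0, miRNAs alone, a replicate block and leaving out each library. Replicates of 1 genotype differed by more than sampling noise (chi-square per degree of freedom 5.13 to 15.5 over miRNAs). Sums and shares were computed in Python 3.11.15. Sequences and positions are from RefSeq on GRCm38.p6, which matched 1618 of 1900 miRNA entries by name, and are not mm9 coordinates.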

Additional observations from a re-analysis of the deposited data

How the results depend on the processing

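The direction of the levels rests on the scale. Under whole-table TMM factors 31 members rose and 0 fell, and the log2 changes turned to 1.85 for miR-463-5p, 1.71 for miR-465a-3p, 1.46 for miR-470-3p, 1.08 for miR-547-3p, 1.83 for miR-741-3p, 1.30 for miR-742-3p, 1.79 for miR-743b-3p, 1.25 for miR-878-3p, 1.496 for miR-880-3p, 1.39 for miR-881-3p, 1.70 for miR-883a-3p, 1.38 for miR-883b-3p and 1.45 for miR-883a-5p. As a percentage of the whole table the cluster differed by 0.810 points in the other direction. Within the miRNAs it stayed lower, by -1.96 points without the 10 other highest miRNAs and -1.26 without miR-468-5p. Points on different totals do not compare in size. The KO to WT ratio of the cluster's mean share was 0.884 on the miRNA total and 2.98 on the whole table. It was 0.881 without the 10 other highest miRNAs and 0.839 without miR-468-5p. TMM factors of the miRNAs left 5 members lower and miRNAs alone 4, and DESeq2 and no filter 7 each. A minimum count of 50 gave 8, without miR-547-3p and with miR-878-5p. Totals without the members or without the 10 highest miRNAs gave 9 each, and without miR-468-5p 11, where 68 of all 348 miRNAs were called lower. Leaving out each library gave 5 to 8 members lower, 0 higher and 0 to 1 hairpins with another arm share. Estimates near 0 also turned sign: miR-463-5p was at 0.0101 with TMM factors of the miRNAs, miR-471-3p at -0.00331 without miR-468-5p in the total and between -0.0224 and 0.209 without single libraries, and miR-201-5p between -0.155 and 0.350 without single libraries. The cause of lost calls was not tested. The table holds 1 entry per mature sequence, so counting identical entries once would change nothing and was not run. Whether the replicate numbers pair the libraries is not known. Deviations of same-numbered libraries correlated at -0.08, 0.31 and 0.26, and those of differently numbered ones at -0.34 to 0.09. With the replicate block the same 8 members were called lower. The 5 members with 17 or fewer counts could not be tested.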
